A study of Mus musculus with 9 samples.

Results

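The autophagy genes described here are 36 genes taken by symbol from a list of the core machinery and its main regulators. All 36 were found among the 45664 gene symbols of the count table, and all 36 were among the 13067 genes with enough counts to be tested. They were measured by RNA sequencing in microglia, the brain's own macrophages, from the visual cortex of male C57BL/6 mice. Of the 9 mice, 4 had been given ethanol (1.8 g per kg under the skin, as a 20% v/v solution in saline, 2 injections a day 2 h apart, 3.6 g per kg a day) and 5 had been given the same volume of saline, from postnatal day 4 to postnatal day 9 in both groups. The ethanol mice were 35, 35, 30 and 30 days old at collection (ethanol 1 to 4) and the saline mice 36, 30, 35, 29 and 30 days old (saline 1 to 5). The mice came from 3 litters, and every library was made from 1 mouse, after myelin removal and a sort for live CD11b+ CD45low cells. The spread between libraries is therefore that between mice, with differences of litter, age, sorting and library preparation included. The question was whether early heavy exposure to ethanol altered the microglial transcriptome in adolescence.

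Macroautophagy encloses cytoplasm, damaged organelles or protein aggregates in a membrane that closes into an autophagosome and then fuses with the lysosome. The ULK kinase complex starts it when the nutrient-sensing kinase complex mTORC1 is inactive, a lipid kinase complex marks the membrane with PI3P, and a conjugation system attaches proteins of the ATG8 family to the growing membrane. Microglia use parts of the same machinery to process engulfed material, a pathway known as LC3-associated phagocytosis.

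Library totals ranged from 12816198 to 28859244 counts. Expression is in CPM, the usual depth-scaled count, with TMM-adjusted library sizes. Summed over 10 defining microglial genes, the level was 57900 to 69000 CPM in ethanol and 58200 to 66400 CPM in saline libraries, so the sorted cells carried the transcripts of their label. Markers of other cells were also present. In ethanol and saline libraries, oligodendrocyte markers summed to 230 to 262 and 198 to 259 CPM. Border macrophage markers summed to 39.1 to 91.3 and 48.4 to 81.7 CPM, and endothelial and pericyte markers to 49.9 to 70.0 and 61.7 to 72.9 CPM. Monocyte and neutrophil markers summed to 4.37 to 15.8 and 3.51 to 6.78 CPM. The 6 lymphocyte genes summed to at most 0.172 and 0.336 CPM. A pair of libraries stood apart from the rest. Saline 1 had a summed neuronal marker level of 3.64 CPM over 10 genes, against 82.4 to 313 CPM in the other libraries, and a summed astrocyte marker level of 4.20 CPM over 8 genes, against 77.9 to 234 CPM. Ethanol 2 had 1477 of the 13067 genes below 0.5 of the median of the other libraries (11.3%), against 1.42% to 6.74% in the others. The part of both differences in the results below was not tested beyond the values given with and without these libraries. In sorted bulk cells fewer cells of a type and less RNA per cell cannot be told apart.

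No autophagy gene was detectably higher or lower in ethanol than in saline microglia. None passed the test, and for none did the ethanol libraries lie entirely above or entirely below the saline libraries. Log2 fold changes of the 36 genes ran from -0.23 (Ulk1) to 0.29 (Atg10), with 22 above 0 and 14 below 0. Their median was 0.019, beside -0.001 over all 13067 genes. The median absolute log2 fold change was 0.0704 for the autophagy genes and 0.118 for all genes tested. It was 0.0919 for the 8480 genes with a mean of at least 10 CPM, which are nearer to the autophagy genes in level.

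By edgeR's quasi-likelihood test, 0 of the 36 had an adjusted p under 0.05 (range 0.963 to 0.998), against 0.0% of all genes tested. At an unadjusted p under 0.05 there was 1 of 36, Atg10, against 2.95% of all genes. Over all genes, 0 were called by edgeR, DESeq2 and limma-voom, with 386, 435 and 504 at an unadjusted p under 0.05. DESeq2 called 0 of the 36 and had the same 1 gene at an unadjusted p under 0.05, while limma-voom called 0 and had 0. The share of all genes whose ethanol libraries all lay above the saline libraries was 0.658%, and 0.628% lay entirely below. Changes beyond 1.5-fold in either direction fell outside the 95% interval of 31 of the 36 autophagy genes (86.1%), against 59.4% of all genes and 84.4% of the 8480 genes with a mean of at least 10 CPM. The members with a wider interval were Ulk1, Ambra1, Wipi1, Optn and Mtor, and for Optn alone it left 2-fold.

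**Figure D1:**
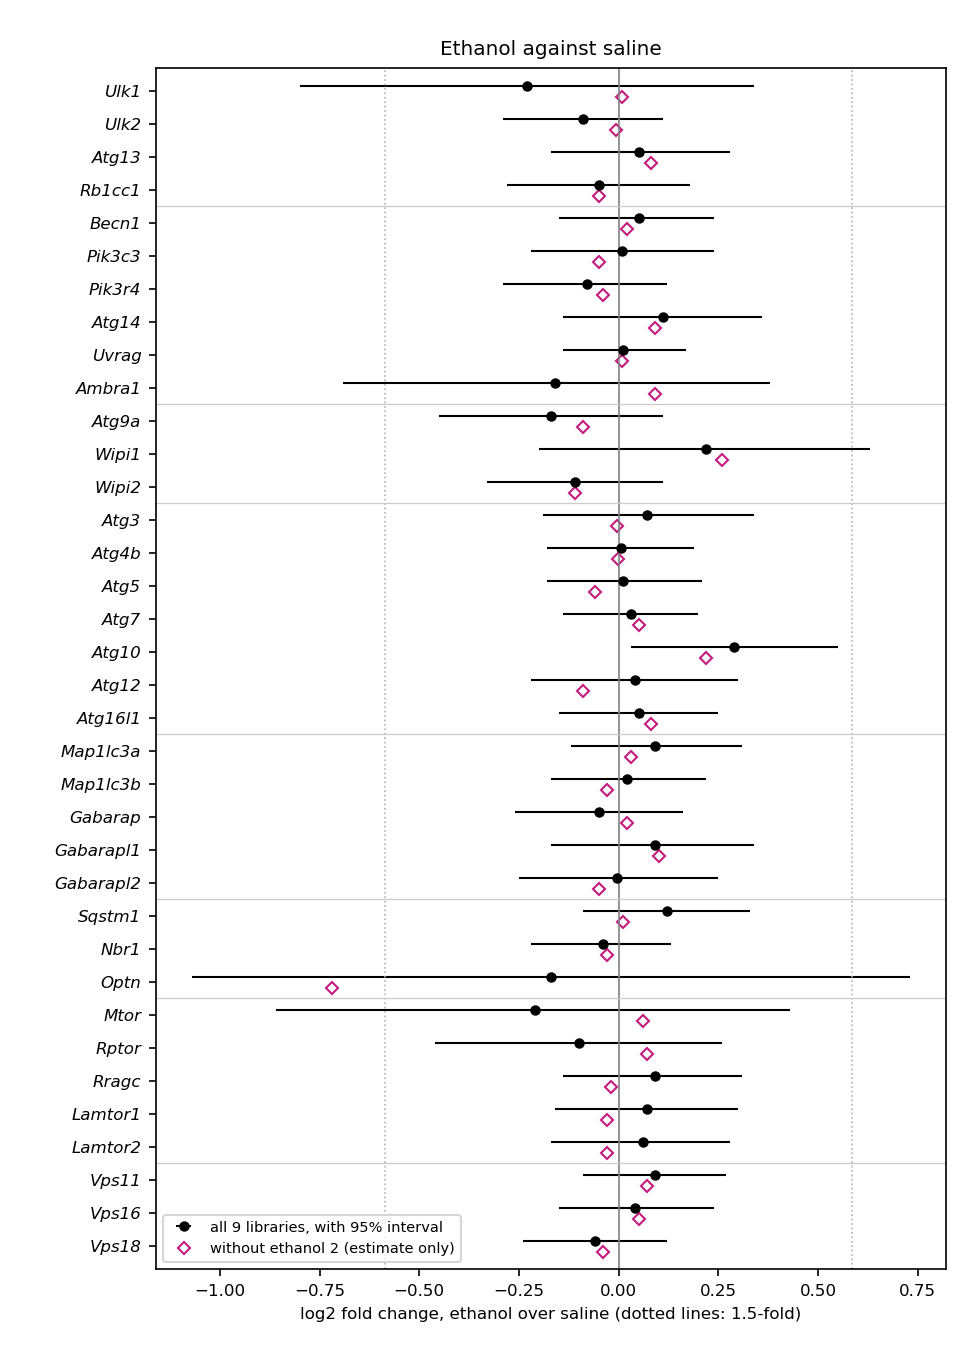
Log2 fold change of each autophagy gene, ethanol over saline, on the horizontal axis, with 95% intervals over all 9 libraries (black circles) and the estimate without ethanol 2 (open diamonds). Intervals are wide for Ulk1, Ambra1, Mtor and Optn, and without ethanol 2 the estimates of Ulk1, Ambra1 and Mtor move to 0.00821, 0.09 and 0.06.

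Levels differed far more between autophagy genes than between groups. To compare genes, CPM was divided by the length of the longest annotated transcript. On this scale the means over the 9 libraries ran from 2.05 CPM per kb for Optn to 113 CPM per kb for Sqstm1. With all annotated exons as the length, Sqstm1, Gabarap and Ulk2 were also the 3 highest. After Sqstm1 came Gabarap at 106, Ulk2 at 80.6, Rptor at 55.2 and Rragc at 53.1 CPM per kb. At the other end, Mtor, Wipi1 and Optn averaged 7.73, 2.93 and 2.05 CPM per kb.

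**Figure D2:**
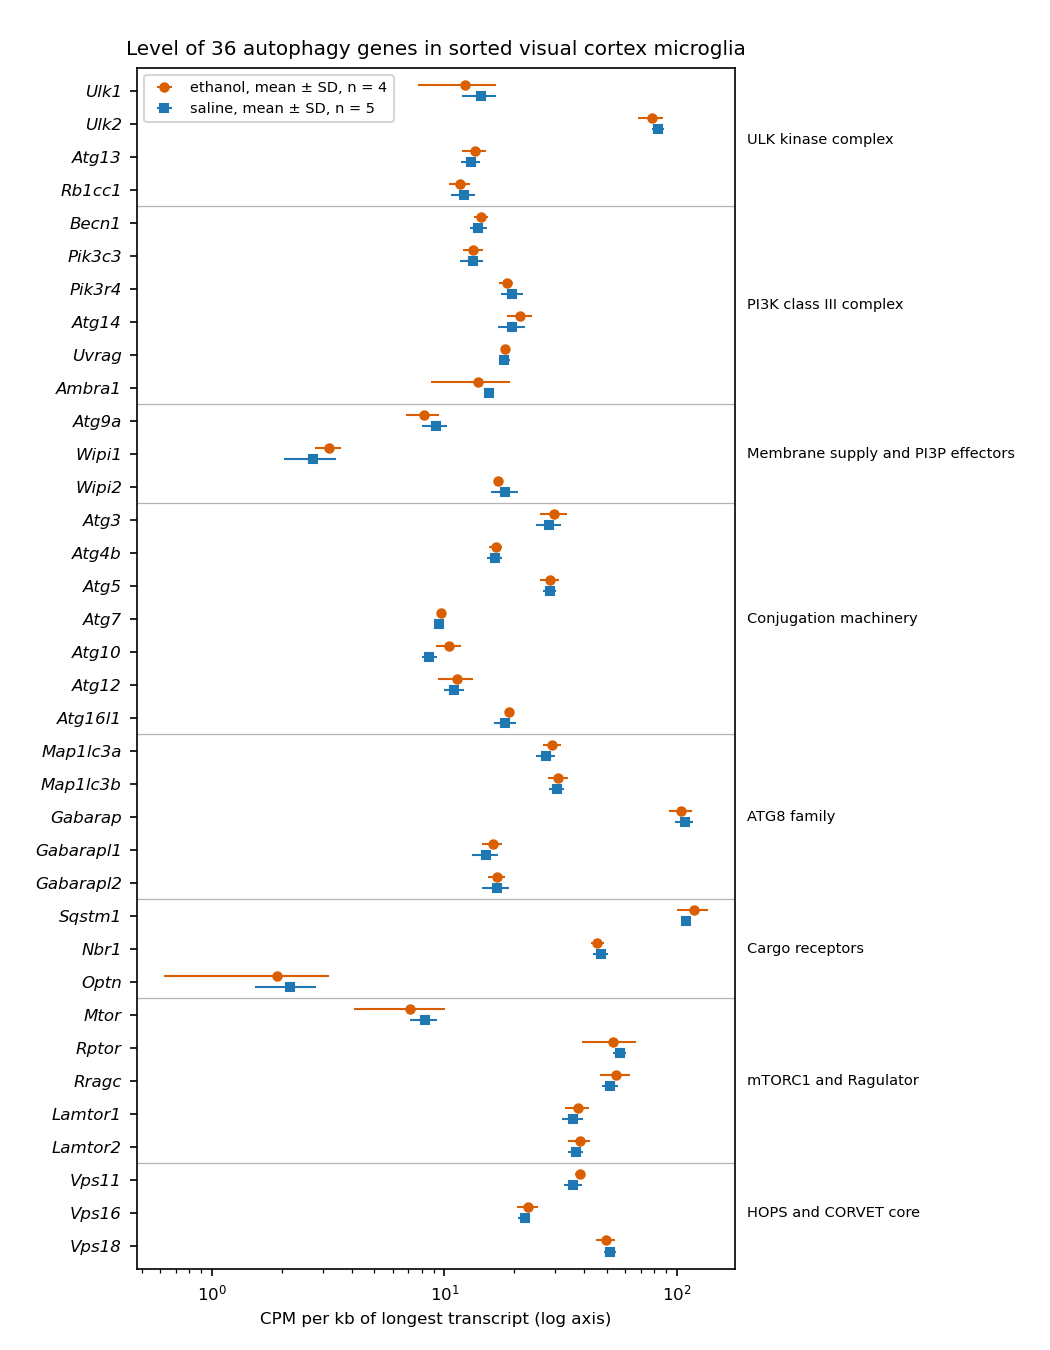
Level of the 36 genes in CPM per kb of the longest transcript (log axis), grouped by role, as mean ± SD for ethanol (orange circles, n = 4) and saline (blue squares, n = 5). Sqstm1, Gabarap and Ulk2 are the highest and Optn the lowest, and the means of ethanol and saline lie close together for each gene.

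Of the ULK complex genes, Ulk2, the paralog of the initiating kinase Ulk1, had the highest mRNA level per kb. Ulk2 stood at 486, 365, 474 and 464 CPM in ethanol 1 to 4, against 455, 437, 506, 491 and 490 CPM in saline 1 to 5. Ethanol 2 was the lowest of the 9, and the other ethanol libraries lay inside the saline range. Its log2 fold change was -0.09 ± 0.09 (SE; edgeR, adjusted p = 0.963), the smallest unadjusted p of this complex. Per kb of transcript, Ulk2 exceeded Ulk1 in 9 of 9 libraries, by 7.16 ± 2.83-fold in ethanol (SD, n = 4) and 5.90 ± 0.773-fold in saline mice (SD, n = 5). Over the libraries the ratio ran from 4.97 to 11.4. It was highest in ethanol 2, where Ulk1 was at 29.1 CPM, and that library raises the ethanol mean.

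Ulk1 itself was at 80.3, 29.1, 71.8 and 73.0 CPM in ethanol 1 to 4, against 60.2, 68.0, 85.4, 89.6 and 68.8 CPM in saline 1 to 5. Ethanol 2 was the lowest library, and the other 3 ethanol libraries fell within the saline range. The log2 fold change was -0.23 ± 0.26 (SE; edgeR, adjusted p = 0.963) with all libraries and 0.00821 ± 0.12 without ethanol 2. Ulk1 lies on chromosome 5, 110784488 to 110810097 (GRCm38, minus strand). The partners of the kinases varied less than Ulk1, though by little once ethanol 2 was left out. With all libraries the SD was 25.5% of the mean for Ulk1, 9.97% for Atg13 and 10.8% for Rb1cc1. Without ethanol 2 it was 13.1%, 10.5% and 11.4%. Atg13, the adaptor that mTORC1 phosphorylates, averaged 48.5 ± 5.75 CPM in ethanol and 46.8 ± 4.30 CPM in saline mice, and the scaffold gene Rb1cc1 89.1 ± 9.16 CPM in ethanol and 92.2 ± 11.1 CPM in saline mice.

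The class III PI3K complex makes PI3P, the lipid mark of the forming autophagosome. Its catalytic subunit gene Pik3c3 averaged 43.3 ± 4.23 CPM in ethanol and 43.0 ± 4.88 CPM in saline mice. The scaffold kinase gene Pik3r4 averaged 91.4 ± 6.38 CPM in ethanol and 96.8 ± 10.5 CPM in saline mice. Becn1, the shared regulatory subunit, averaged 62.9 ± 4.23 CPM in ethanol and 60.9 ± 5.14 CPM in saline mice. Exons of Cntd1 on the opposite strand cover 43.9% of the exonic bases of Becn1, which leaves its count uncertain. Atg14 directs the complex to autophagosomes and Uvrag to endosomes, and a complex holds one or the other. Atg14 was at 89.3, 81.3, 66.2 and 78.9 CPM in ethanol 1 to 4, against 68.0, 61.7, 75.1, 87.2 and 73.8 CPM in saline 1 to 5, with wide overlap. It had the highest level per kb of the complex, 20.3 CPM per kb, with Pik3r4 at 19.1 and Uvrag at 18.2. The ratio of Atg14 to Uvrag per kb ran from 0.893 to 1.38 over the libraries, with Atg14 higher in 7 of 9, while per kb of all annotated exons Atg14 was higher in 9 of 9.

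Uvrag was among the steadiest members, between 87.5 and 101 CPM, a coefficient of variation (CV, SD over mean) of 4.29% over all libraries. Its count is uncertain, since 17.6% of its exonic bases lie opposite another gene and 6 other genes hold stretches at least 95% identical to it, Klhl20, Mettl6 and Txndc16 among them. Atg7 had the lowest CV, 3.48%. Ambra1, a regulator that links Becn1 and ULK1 to ubiquitin ligases (chromosome 2, 91730134 to 91918849, plus strand), was at 89.5, 32.4, 87.5 and 80.4 CPM in ethanol 1 to 4, against 82.1, 76.1, 81.4, 82.0 and 81.1 CPM in saline 1 to 5. Outside ethanol 2 its level stayed within 76.1 to 89.5 CPM. The log2 fold change was -0.16 ± 0.24 (SE; edgeR, adjusted p = 0.963) with ethanol 2 and 0.09 ± 0.07 without it.

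Membrane supply and PI3P reading were represented by Atg9a, Wipi1 and Wipi2. Wipi2, which recruits the conjugation enzymes to PI3P, was at 89.5, 87.4, 88.8 and 85.8 CPM in ethanol 1 to 4, against 81.1, 81.2, 108, 103 and 101 CPM in saline 1 to 5. The ethanol values lay between a lower pair and a higher trio of saline libraries, and the log2 fold change was -0.11 ± 0.10 (SE; edgeR, adjusted p = 0.963). Atg9a, the lipid scramblase of the vesicles that seed the membrane, was at 42.1, 28.6, 32.4 and 34.4 CPM in ethanol 1 to 4, against 37.1, 32.1, 41.7, 44.6 and 37.6 CPM in saline 1 to 5. The groups overlapped, with a log2 fold change of -0.17 ± 0.13 (SE; edgeR, adjusted p = 0.963). The annotation places 31.8% of the exonic bases of Atg9a in exons shared with other genes of the same strand, so its count is uncertain.

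Wipi1, the paralog of Wipi2, was at 12.3, 9.41, 9.69 and 11.0 CPM in ethanol 1 to 4, against 11.8, 11.4, 7.32, 6.92 and 8.11 CPM in saline 1 to 5. It was low in saline 3, 4 and 5 and overlapped with the ethanol libraries in saline 1 and 2. Wipi2 was higher than Wipi1 per kb in 9 of 9 libraries, by 5.41 ± 0.648-fold in ethanol and 7.25 ± 2.57-fold in saline mice.

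The conjugation machinery works like ubiquitination. ATG7 is the shared E1-like enzyme, ATG3 the E2-like enzyme for ATG8 proteins and ATG10 that for ATG12, which is joined to ATG5 and bound by ATG16L1, while the protease ATG4B trims ATG8 proteins before conjugation. All 7 genes had log2 fold changes above 0, from 0.00592 (Atg4b) to 0.29 (Atg10). None passed the test, and without ethanol 2 the estimates for Atg3, Atg4b, Atg5 and Atg12 were -0.00426, -0.00126, -0.06 and -0.09.

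Atg10 (chromosome 13, 90935356 to 91223968, minus strand) had the smallest unadjusted p of all 36 genes. It was at 16.6, 18.7, 13.8 and 17.4 CPM in ethanol 1 to 4, against 14.0, 14.0, 12.3, 13.1 and 14.9 CPM in saline 1 to 5. Of the ethanol libraries, 3 lay above all saline libraries and ethanol 3 lay among them. Its log2 fold change was 0.29 ± 0.12 (SE; edgeR, unadjusted p = 0.0339, adjusted p = 0.963), or 0.22 ± 0.13 without ethanol 2. The value was 0.43 in the older cohort alone (postnatal days 35 and 36) and 0.16 in the younger cohort alone (days 29 and 30).

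Atg3 had the highest level per kb of the conjugation genes, 28.8 CPM per kb, with Atg5 next at 28.4, an order that turned round per kb of all annotated exons. It was at 62.6, 70.5, 62.2 and 50.7 CPM in ethanol 1 to 4, against 60.9, 46.0, 64.3, 60.1 and 61.3 CPM in saline 1 to 5. Ethanol 4 and saline 2 were the low libraries, and the groups overlapped. Atg7, at 37.5 ± 1.40 CPM in ethanol and 36.8 ± 1.24 CPM in saline mice, showed the least spread. Atg4b, Atg5, Atg12 and Atg16l1 averaged 53.8 to 71.2 CPM in ethanol and 52.5 to 69.0 CPM in saline mice.

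Genes of autophagy and lysosomes share a regulatory element, known as the CLEAR element, a palindrome around CACGTG to which TFEB and related transcription factors bind. RefSeq promoter windows on GRCm38.p6 (250 bases before the start to 50 after it) were matched by symbol for 29 of the 36 genes. CACGTG, which reads the same on both strands, stood in 7 of them (24.1%): Atg3, Atg5, Atg7, Atg14, Lamtor1, Rragc and Vps16. It stood in 8.09% of the 27025 genes with such a window. The longer form GTCACGTGA, which contains CACGTG and was searched on both strands, stood in Vps16 and Atg3 alone among the members (6.90%), against 0.895% of all genes. These stretches are shown because they carry the longest matches, with the match in capitals. The Vps16 stretch is chr2:130424220-130424319 and the Atg3 stretch chr16:45158710-45158809, both plus strand.
Vps16: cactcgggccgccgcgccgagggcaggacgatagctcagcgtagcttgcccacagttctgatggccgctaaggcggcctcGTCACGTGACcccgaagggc
Atg3: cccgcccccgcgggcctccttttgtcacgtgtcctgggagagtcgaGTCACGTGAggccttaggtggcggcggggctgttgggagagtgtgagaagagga
The last base of the match lies 11 bases before the start of Vps16 and 65 bases before that of Atg3. In Vps16 the match extends to a palindrome of 10 bases, held by 0.370% of all genes. Levels of Vps16 and Atg3 did not pass the test between ethanol and saline (log2 fold changes of 0.04 ± 0.09 and 0.07 ± 0.12, SE).

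Of the genes for the ATG8 family, the proteins attached to the autophagosome membrane, Gabarap had the highest mRNA level per kb. Gabarap was at 154, 119, 149 and 141 CPM in ethanol 1 to 4, against 153, 137, 137, 165 and 136 CPM in saline 1 to 5. Ethanol 2 was the lowest library and the other values overlapped. Per kb, Gabarap was higher than each other family member in 9 of 9 libraries. It exceeded Map1lc3b, which encodes the common autophagosome marker LC3B, by 3.40 ± 0.566-fold in ethanol and 3.54 ± 0.201-fold in saline mice.

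Map1lc3a, which encodes LC3A and had the smallest unadjusted p of the family, was at 30.8, 36.3, 30.4 and 31.8 CPM in ethanol 1 to 4, against 29.2, 29.8, 28.8, 35.3 and 28.4 CPM in saline 1 to 5. Ethanol 2 and saline 4 were the high libraries. In saline 1, which nearly lacked neuronal markers, Map1lc3a and Gabarapl1 were at 29.2 and 26.4 CPM, inside the range of the other saline libraries. Map1lc3b averaged 128 ± 12.3 CPM in ethanol and 126 ± 9.47 CPM in saline mice. Gabarapl1 averaged 29.3 ± 2.96 CPM in ethanol and 27.6 ± 3.54 CPM in saline mice, and Gabarapl2 28.1 ± 2.43 CPM in ethanol and 28.2 ± 3.76 CPM in saline mice. The order of Map1lc3b and Map1lc3a depended on the length used, since Map1lc3b was higher in 8 of 9 libraries per kb of longest transcript and in 0 of 9 per kb of all annotated exons. Gabarapl2 has 3 processed pseudogenes with stretches at least 95% identical, so its count is uncertain, as is that of Gabarapl1, with 28.3% of its exonic bases opposite another gene.

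Cargo receptors bind ubiquitinated material and ATG8 proteins. Sqstm1, which encodes p62 (chromosome 11, 50199366 to 50210827, minus strand), was the most abundant autophagy gene per kb. It was at 321, 378, 285 and 273 CPM in ethanol 1 to 4, against 307, 275, 277, 295 and 295 CPM in saline 1 to 5. Ethanol 2 was the highest library and ethanol 4 the lowest, so the saline libraries lay within the ethanol range. Its log2 fold change was 0.12 ± 0.10 (SE; edgeR, adjusted p = 0.963) and 0.01 ± 0.07 without ethanol 2. The estimate was 0.26 in the older cohort and -0.05 in the younger cohort. Exons of Mrnip lie opposite 17.3% of its exonic bases.

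Nbr1, a receptor related to p62, averaged 218 ± 14.3 CPM in ethanol and 225 ± 16.7 CPM in saline mice. Optn, the optineurin gene, had the lowest level and the largest spread, a CV of 44.7%. It was at 2.14, 9.62, 2.98 and 5.09 CPM in ethanol 1 to 4, against 7.12, 6.31, 6.38, 2.82 and 5.69 CPM in saline 1 to 5. Ethanol 2 was the highest of all libraries and ethanol 1, ethanol 3 and saline 4 were low. The log2 fold change was -0.17 ± 0.41 (SE; edgeR, adjusted p = 0.974) and -0.72 ± 0.33 without ethanol 2. It was 0.08 without ethanol 1, 0.00893 without ethanol 3 and -0.34 without saline 4, so the estimate depended on several single libraries.

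mTORC1 restrains autophagy by phosphorylating the ULK complex, and is held at the lysosome by Rag GTPases and the Ragulator. Mtor, the kinase gene (chromosome 4, 148448611 to 148557683, plus strand), was at 71.0, 22.8, 79.4 and 70.0 CPM in ethanol 1 to 4, against 64.6, 70.5, 64.9, 86.6 and 65.7 CPM in saline 1 to 5. Outside ethanol 2 the ethanol libraries lay inside the saline range. The log2 fold change was -0.21 ± 0.29 (SE; edgeR, adjusted p = 0.963), and 0.06 ± 0.10 without ethanol 2.

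Rptor, the scaffold that presents substrates to the kinase (chromosome 11, 119602905 to 119899576, plus strand), had the highest level per kb of this group, 55.2 CPM per kb against 53.1 for Rragc, an order that turned round per kb of all annotated exons. It was at 388, 215, 417 and 379 CPM in ethanol 1 to 4, against 416, 362, 372, 353 and 371 CPM in saline 1 to 5. Ethanol 2 was again the low library, and the log2 fold change was -0.10 ± 0.16 (SE; edgeR, adjusted p = 0.966) with it and 0.07 ± 0.07 without it. Per kb, Rptor exceeded Mtor in 9 of 9 libraries, by 8.29 ± 2.61-fold in ethanol and 7.02 ± 1.14-fold in saline mice. This ratio ran from 5.29 to 12.2. It was highest in ethanol 2, where Mtor was at 22.8 CPM, and that library raises the ethanol mean.

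Rragc, a Rag GTPase gene, was at 166, 193, 151 and 137 CPM in ethanol 1 to 4, against 161, 142, 143, 148 and 169 CPM in saline 1 to 5. Ethanol 2 was the highest and ethanol 4 the lowest. The Ragulator genes Lamtor1 and Lamtor2 averaged 72.6 ± 8.80 and 25.4 ± 2.74 CPM in ethanol mice, against 69.3 ± 7.07 and 24.5 ± 1.77 CPM in saline mice. Lamtor1 was highest in ethanol 2, at 85.8 CPM.

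Vps11, Vps16 and Vps18 encode the core shared by the HOPS and CORVET complexes, which tether membranes before fusion with lysosomes and endosomes. Vps18 had the highest level per kb, 50.7 CPM per kb, and was at 197, 192, 227 and 187 CPM in ethanol 1 to 4, against 215, 189, 221, 215 and 206 CPM in saline 1 to 5. Vps11 was at 150, 152, 143 and 136 CPM in ethanol 1 to 4, against 157, 134, 124, 130 and 137 CPM in saline 1 to 5. The groups overlapped for both. The log2 fold change of Vps11 was 0.09 ± 0.08 (SE; edgeR, adjusted p = 0.963). Vps16 averaged 72.0 ± 7.54 CPM in ethanol and 69.8 ± 4.19 CPM in saline mice. All 3 genes had a CV under 10%.

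**Figure D3:**
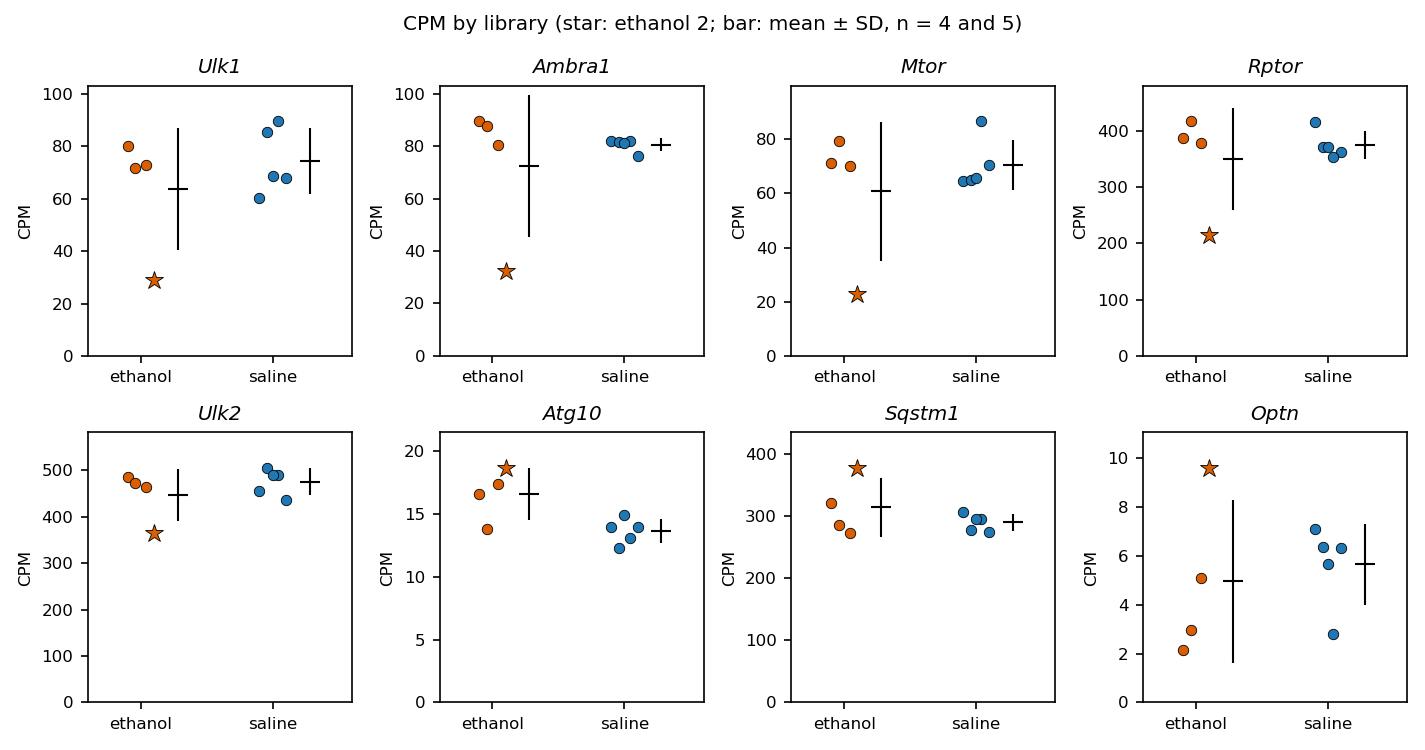
CPM by library for 8 autophagy genes, ethanol left and saline right, with mean ± SD beside the points (n = 4 and 5) and ethanol 2 as a star. Ulk1, Ambra1, Mtor, Rptor and Ulk2 are lowest in ethanol 2, while Atg10, Sqstm1 and Optn are highest there.

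Most autophagy genes varied little from mouse to mouse. The median CV over the 9 libraries was 10.3% for the 36 genes, at a median level of 69.7 CPM, and 16.1% for all genes tested, at a median level of 22.0 CPM. For the 8480 genes with a mean of at least 10 CPM, which are nearer in level, the median CV was 12%. A CV under 15% was found for 30 of the 36 genes and for 46.0% of all genes tested. A CV under 10% was found for 47.2% of the autophagy genes, 22.6% of all genes tested and 34.3% of these 8480 genes. The 6 more variable members were Optn, Mtor, Ulk1, Ambra1, Wipi1 and Rptor. Without ethanol 2 only Optn (39.5%) and Wipi1 (21.7%) remained at 15% or more, and both were low in counts.

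The lowest ratios among the autophagy genes in ethanol 2 were those of 4 genes. Relative to the median of the other libraries, Mtor was at 0.325, Ambra1 at 0.396, Ulk1 at 0.401 and Rptor at 0.572. The first 3 were below 0.5, or 3 of 36 (8.33%), against 11.3% of all genes tested. Of the 9221 annotated genes with a mean of at least 5 CPM, 8.33% were that low. The share of autophagy genes was therefore no higher than that of other genes. In saline 1 no autophagy gene was below 0.5 or above 2 times the median of the others, and the 36 ratios there ran from 0.831 to 1.32. Of all genes, 6.74% were below 0.5 and 1.12% above 2 there. Elsewhere the only autophagy gene below 0.5 was Optn, in ethanol 1, ethanol 3 and saline 4, where 4.14%, 3.1% and 3.44% of all genes were that low. In ethanol 4, saline 2, saline 3 and saline 5 no autophagy gene was below 0.5, against 1.42%, 1.87%, 2.42% and 1.78% of all genes. No autophagy gene was above 2 in any library. Of all genes, 1.46%, 1.47%, 1.76% and 3.95% were in ethanol 1 to 4, and 1.84%, 1.72%, 1.2% and 2.74% in saline 2 to 5.

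**Figure D4:**
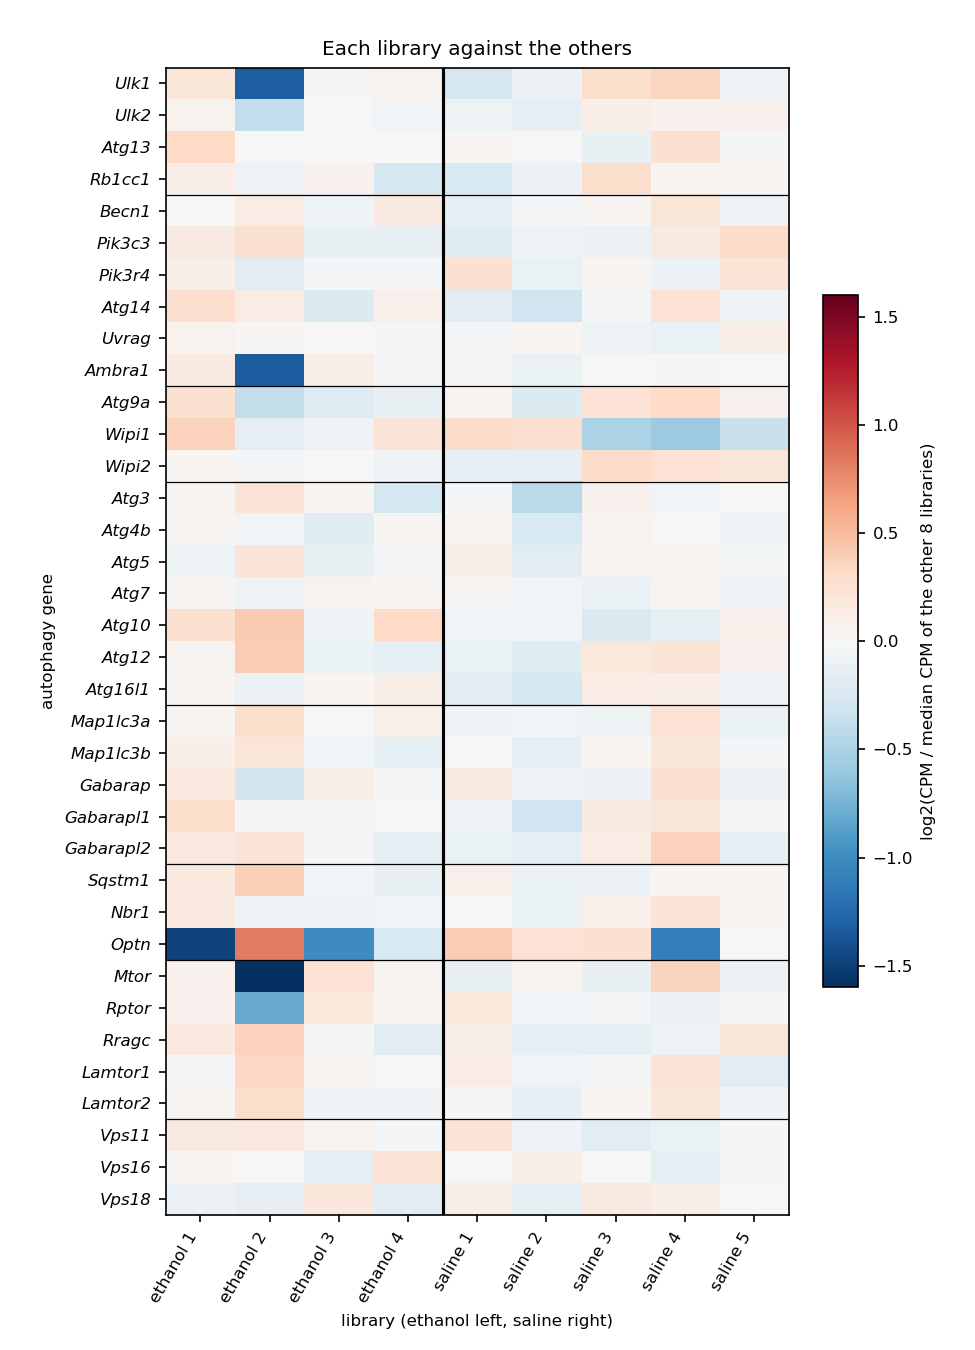
Log2 ratio of each autophagy gene's CPM in a library (columns, ethanol left of the black line) to the median of the other 8 libraries. The darkest cells are Mtor, Ambra1 and Ulk1 in ethanol 2 and Optn in ethanol 1, saline 4 and ethanol 3, and the cells of most other genes are pale in every library.

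The 4 genes low in ethanol 2 shared long transcripts and a high GC content. Their longest transcripts measured 8564 nt (Mtor), 6594 nt (Rptor), 5213 nt (Ulk1) and 5203 nt (Ambra1), with GC contents of 54.2%, 56.5%, 58.0% and 54.7%. They were the only 4 members with at least 5000 nt and at least 54% GC, limits chosen after their values were seen. The 4 long members of lower GC content, Ulk2, Rb1cc1, Uvrag and Wipi2, had ratios of 0.760 to 1.01 in ethanol 2, and the 5 shorter GC-rich members 0.767 to 1.30. Among all genes with a mean of at least 5 CPM, 50.8% of the 305 long GC-rich genes were below 0.5 in ethanol 2, as were 18.2% of the 1882 long genes of lower GC content, 8.09% of the 2027 shorter GC-rich genes and 2.14% of the 5007 genes that were neither. With a smooth trend on GC content and length removed from each library, the log2 fold changes were -0.12 for Mtor, -0.10 for Ambra1, -0.13 for Ulk1 and 0.05 for Rptor.

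**Figure D5:**
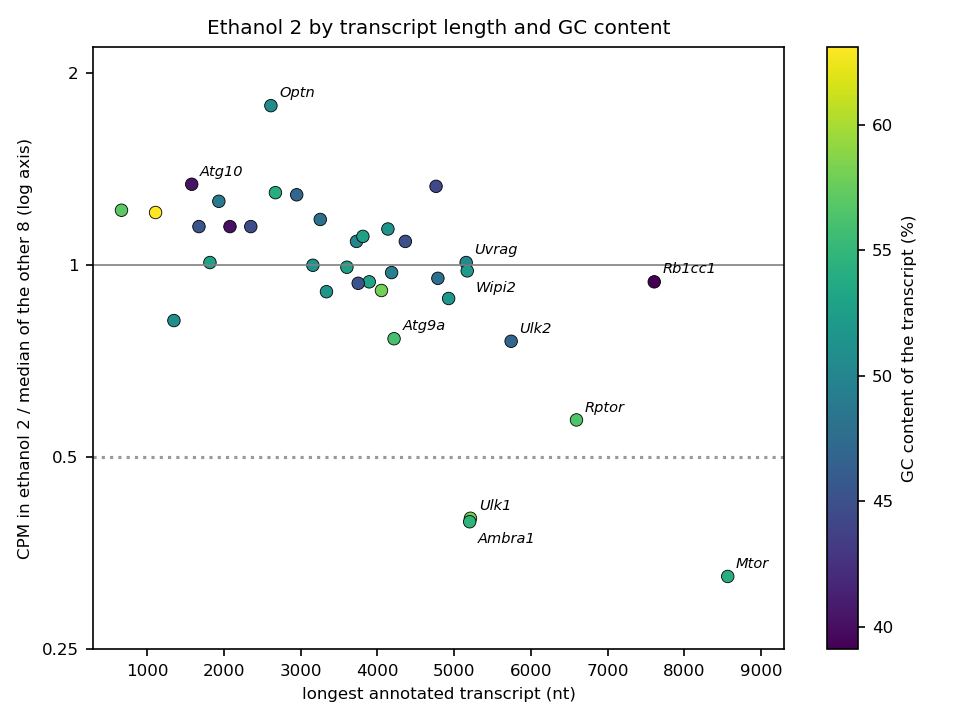
CPM in ethanol 2 relative to the median of the other 8 libraries (log axis) against the length of the longest transcript, for the 36 autophagy genes, coloured by GC content. Ulk1, Ambra1, Rptor and Mtor lie at the lower right, while Rb1cc1, long but poor in GC, lies near 1.

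Other genes of the pathway, 70 in 6 further lists, were examined next. Of these 66 were tested, 0 passed in either direction by edgeR (2 at an unadjusted p under 0.05, Fundc1 and Sesn3, a share near the 2.95% of all genes), 32 were above 0 and 34 below 0, and their median log2 fold change was -0.009, beside -0.001 over all genes. All 6 transcription factor genes listed (Tfeb, Tfe3, Mitf, Foxo1, Foxo3 and Zkscan3) were below 0, none beyond -0.16. The smallest unadjusted p of each list belonged to Zfyve1, Atg16l2, Fundc1, Vps8, Sesn3 and Foxo3. Fundc1, a receptor for mitochondria, averaged 59.7 ± 10.7 CPM in ethanol and 49.5 ± 2.01 CPM in saline mice. It was at 65.8, 71.3, 53.6 and 48.1 CPM in ethanol 1 to 4, against 51.1, 46.3, 49.5, 51.2 and 49.1 CPM in saline 1 to 5. Ethanol 1 and 2, from older mice, were the highest libraries, and ethanol 4 lay inside the saline range. Its log2 fold change was 0.27 ± 0.11 (SE; edgeR, unadjusted p = 0.0352, adjusted p = 0.963). Atg16l2, a paralog of Atg16l1, had means of 8.98 ± 1.69 CPM in ethanol and 11.3 ± 1.45 CPM in saline mice (log2 fold change -0.33 ± 0.16).

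Sesn3, a nutrient-sensing gene, was low, at 0.737 ± 0.295 CPM in ethanol and 1.34 ± 0.360 CPM in saline mice. Zfyve1 and the trafficking gene Vps8 had log2 fold changes of -0.34 ± 0.23 and -0.13 ± 0.10. In ethanol 2, 8 of the 66 genes were below 0.5 of the other libraries' median, a share near the 11.3% of all genes. These were Atg2a, Atg2b, Zfyve1, Calcoco1, Epg5, Tsc2, Fnip2 and Sesn3. The lipid transfer genes Atg2a and Atg2b were at 21.4 and 18.2 CPM there, against 65.9 to 78.1 CPM and 54.6 to 59.2 CPM in the other ethanol libraries and 61.1 to 76.5 CPM and 47.4 to 73.1 CPM in saline libraries.

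Age also differed between mice, with 4 older mice (days 35 and 36) and 5 younger mice (days 29 and 30). Age ran largely together with the suffix of the library names. Ethanol 1 and 2 (older) had suffix 1.5.16 and ethanol 3 and 4 (younger) 1.6.16. Saline 3 (older) and 4 (younger) had 1.5.16, saline 2 and 5 (younger) 1.6.16 and saline 1 (older) 1.X.16. Among the ethanol mice age and suffix cannot be told apart, which also limits the cohort and interaction results. No autophagy gene passed edgeR's test between the cohorts with treatment as a covariate (adjusted p from 0.973 to 0.995; 0.0% of all genes passed), and 0 of 36 had an unadjusted p under 0.05, against 2.85% of all genes. DESeq2 and limma-voom also called 0 members and 0 genes. The log2 fold change, older over younger, exceeded 0 for 23 of the 36, and the median was 0.045, beside -0.019 over all genes. No member had all older libraries above or all below the younger ones, against 0.643% and 0.597% of all genes. The smallest p was that of Atg3, at 64.6 ± 4.18 CPM in older and 56.1 ± 7.30 CPM in younger mice, a log2 fold change of 0.20 ± 0.11 (SE). Mtor had one of -0.41 ± 0.28, with ethanol 2 among the older mice.

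No autophagy gene passed the test of whether the ethanol effect differed between the cohorts (edgeR interaction term, adjusted p from 0.972 to 0.996; 0.0% of all genes passed). DESeq2 called 0 members as well. Pik3c3 was the only member with an unadjusted p under 0.05, against 3.24% of all genes. In the older cohort it was at 45.2 and 48.3 CPM in ethanol mice, against 37.7 and 40.6 CPM in saline mice. In the younger cohort it was at 39.7 and 39.8 CPM in ethanol mice, against 41.2, 45.1 and 50.3 CPM in saline mice. The interaction was 0.45 ± 0.19 (SE, log2 scale; edgeR, unadjusted p = 0.0367, adjusted p = 0.972). Its unadjusted p was no longer under 0.05 when ethanol 2, 3 or 4 or saline 1, 3, 4 or 5 was left out, nor with the replicate number as a block.

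When ethanol 1 was left out, ethanol 2 was the only older ethanol mouse, and the interaction test then called 848 of 13343 genes (6.36%) and 4 of the 36 autophagy genes, Ambra1, Mtor, Rptor and Ulk1. These are the genes already seen to be low in that library, and the test takes the spread of the lone library from the other groups. The interaction terms were -1.38, -1.48, -0.98 and -1.23 on the log2 scale. Without ethanol 2 the test called 0 members and 0 genes.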

How the data were processed

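The authors deposited unnormalized read counts by gene symbol for all 9 libraries. Trimmomatic 0.32, STAR 2.4.2a and HTSeq 0.6.1, with GRCm38.p4, are the tools and build in the submitters' processing notes. Their settings, and whether strand was used, are not given, so overlapping and antisense genes and near-identical copies carry an uncertainty. Genes were kept with filterByExpr (minimum count 10, total 15) and scaled by TMM. The main test was edgeR 4.0.16's robust quasi-likelihood test (R 4.3.3) across all 13067 genes with Benjamini-Hochberg adjustment at 0.05, and each SE is the absolute log2 fold change over the square root of F. DESeq2 1.42.0 and limma 3.58.1 were alternatives. The edgeR tests of ethanol against saline and of older against younger mice were also run on simulated counts. The other procedures were not. Coordinates, lengths and GC contents came from GENCODE M21 (GRCm38), matched by symbol for 12385 genes (94.8%), and copies were searched with BLAST 2.17.0 (at least 95% identity over 300 nt). The members and lists were chosen with earlier results of these data known. Values by library were printed for the member of each role with the highest CPM per kb and that with the smallest p, the 3 smallest p in each direction, and members below 0.5 or above 2 times the other libraries in ethanol 2 or saline 1. Wipi1, Optn, Pik3c3 and, of the other pathway genes, Fundc1 were added after their values were seen. Library totals of 12816198 to 28859244 gave 27 to 12677 counts per member and library. Litters are not tied to mice in the sources used here, so the p-values and intervals take no account of litter. The spread between mice includes that of litter, sorting and library preparation.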

Additional observations from a re-analysis of the deposited data

Results flagged for a closer look

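Each autophagy gene was checked within each group for a library far from the others, by Dixon's ratio of the end gap to the range (critical value 0.829 for 4 libraries and 0.710 for 5). Of 72 such groups 10 held one, and 4 of the 10 were ethanol 2. The nominal rate of the rule is about 1 in 20, but genes of the same library are not independent. The rate over all genes was not computed, so the count is not a result about autophagy genes. A small gap is also flagged where the other libraries lie close together, such as Ambra1 in saline 2. In ethanol 2, Ulk1 was at 29.1 CPM (other ethanol libraries 71.8 to 80.3), Ambra1 at 32.4 CPM (80.4 to 89.5), Mtor at 22.8 CPM (70.0 to 79.4) and Lamtor1 at 85.8 CPM (67.6 to 68.9). In ethanol 1, Atg13 was at 57.2 CPM (45.5 to 45.8) and Gabarapl1 at 33.7 CPM (27.6 to 28.1). In saline 2, Ambra1 was at 76.1 CPM (other saline libraries 81.1 to 82.1) and Atg3 at 46.0 CPM (60.1 to 64.3). In saline 4, Map1lc3a was at 35.3 CPM (28.4 to 29.8) and Mtor at 86.6 CPM (64.6 to 70.5).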

How the results depend on the processing

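Ethanol against saline called 0 genes and 0 autophagy genes under every alternative run, and the median log2 fold change of the members ran from -0.005 to 0.049 with a library left out. For age, genes called were 97 with no count filter and 3 without saline 1 and ethanol 2, and members called 0 throughout. For the interaction, genes called were 1 with DESeq2, 53 with no count filter and 0 to 848 with a library left out, and members called 0 to 4, the highest without ethanol 1. None of the fold changes was called, and many near 0 turned sign: of the 36 members, 14 did without ethanol 2, 11 without saline 1 and ethanol 2, 17 in the younger and 4 in the older cohort alone, and 6 with the GC and length correction. The values that follow are for the 11 members recomputed under every alternative, and the other members that turned are in those counts alone. With limma-voom, Ambra1 was 0.02 and Rptor 0.05. With a library left out, the range was -0.36 to 0.00821 for Ulk1, -0.27 to 0.09 for Ambra1, -0.37 to 0.06 for Mtor, -0.20 to 0.07 for Rptor and -0.72 to 0.08 for Optn. Without saline 1 and ethanol 2, Ambra1 was 0.10, Mtor 0.03 and Rptor 0.11. In the younger cohort alone, Ambra1 was 0.07, Sqstm1 -0.05, Mtor 0.00677 and Rptor 0.13. With the GC and length correction, of these 11, Wipi2 was 0.00152 and Rptor 0.05. Alternatives added after the data were seen took the libraries of each name suffix alone. There Optn was 0.38 with suffix 1.5.16, and Ulk1 was 0.08, Ulk2 0.01, Ambra1 0.09, Sqstm1 -0.03, Mtor 0.13 and Rptor 0.12 with suffix 1.6.16. The causes of these changes were not tested. Leaving out a library shows only that an estimate depended on it. Also added then, levels per kb of all annotated exons kept Sqstm1, Gabarap and Ulk2 as the 3 highest members.

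No pairing by replicate number was seen: the correlations of same-numbered libraries' deviations were -0.0158, -0.0101, -0.0542 and -0.0141. Such correlations cannot exclude a pairing in the design. With the replicate block the ethanol median of the members was 0.022 and 0 genes were called for ethanol, age or the interaction. Saline 5 has no ethanol library of its number, and the block left little to measure the spread with, least for the interaction. The 0 calls there therefore say little. With the block and the GC and length correction together Rptor was 0.02. The design's 4 and 5 mice limit precision for low genes such as Optn, with 27 to 232 counts.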
